A study of Homo sapiens with 14 samples.

Results

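The replicate 2 libraries of DMSO-treated and I-BET151-treated pancreatic progenitors were compared with the replicate 1 libraries of the same treatments. These were 4 of the 14 RNA sequencing libraries of the study, chosen by the replicate number in their titles. The cells were pancreatic progenitors derived from MEL1, a human embryonic stem cell line. According to the study's methods the line was MEL1 INS GFP/W, which carries a GFP reporter at the insulin gene. They were kept for 7 days with the solvent DMSO or with 1 μM I-BET151, which blocks the acetyl-lysine binding of BET bromodomain proteins, and all 4 libraries carried the label batch 3. According to the study's methods, such cells grew in a basal medium with EGF, bFGF and a TGF-β inhibitor, so the DMSO and I-BET151 groups shared these agents. The labels do not say whether a replicate number stands for a separate culture, a separate differentiation or a repeated library. The p-values below therefore measure the spread between these libraries only, which may be technical. A single cell line was used.

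Several gene programmes of cultured cells follow nutrient supply and stress closely. The amino acid response is driven by ATF4, a transcription factor translated more when amino acids run short or the endoplasmic reticulum is stressed. It turns on amino acid importers and the enzymes that make serine, asparagine and cysteine. Glycolytic enzymes are controlled in part by the hypoxia-inducible factors. Cholesterol synthesis is controlled by SREBF2, which is held in the endoplasmic reticulum membrane when sterols abound. Ribosomal protein mRNAs belong to a class whose stability and translation depend on mTOR signalling.

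The label of pancreatic progenitor was checked first. PDX1, the master factor of the pancreatic bud, was at 110 and 74.4 TPM (transcript abundance as a length-corrected part of its library) in DMSO replicates 1 and 2 and at 198 and 134 TPM in the I-BET151 replicates. SOX9, a progenitor factor, lay between 82.2 and 175 TPM in the 4 libraries. The hepatocyte and gut markers AFP and CDX2 were also present, AFP at 617 to 5530 TPM and CDX2 at 95.9 to 237 TPM. Markers of other cell types were read as whole lists. Of 9 blood cell markers 5 stayed under 1 TPM in every library, among them PTPRC. The list still summed to 250 and 256 TPM in DMSO and 15.9 and 23.7 TPM in I-BET151. These sums came mostly through CD68 (7.68 to 122 TPM) and LYZ (6.77 to 128 TPM). HBB and HBA1 reached 1 TPM only in DMSO replicate 2, at 13.6 and 7.77 TPM, so they were not tested. Of 11 neural markers 6 stayed under 1 TPM, among them SOX1 at 0 in every library. The neural list summed to 162 and 884 TPM in replicate 1 and 46.3 and 161 TPM in replicate 2, mostly through TUBB3 and NES (26.7 to 72.1 TPM). Of 10 pluripotency markers 6 stayed under 1 TPM, among them POU5F1, while LIN28A was at 126 and 50.3 TPM in replicate 1 and 172 and 151 TPM in replicate 2. Of 9 endothelial markers 4 stayed under 1 TPM. The list summed to 136 and 180 TPM in replicate 1 and 76.4 and 53.8 TPM in replicate 2, mostly through EGFL7 (47.2 to 173 TPM). The part of such cells in the results was not tested. The listed TPM of a library summed to between 952246 and 985497, and 15809 to 16359 genes reached 1 TPM. TPM keeps no record of read number, so the depth is unknown. In these bulk samples, fewer cells of a type and less RNA per cell cannot be told apart.

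Differences are given as replicate 2 minus replicate 1 on the log2(TPM + 1) scale, on which the change of a weakly expressed gene looks smaller than it is. Where 2 TPM values are given for a replicate number, the first is DMSO and the second I-BET151. A gene was tested where at least 2 of the 4 libraries reached 1 TPM, and 16687 genes were. This filter also admits genes that reached 1 TPM in the libraries of 1 replicate number only. For such genes the filter favours the direction that is then called, so their calls are no added support. A linear model (limma) with treatment as a term called a gene at a Benjamini-Hochberg adjusted p under 0.05 and a mean difference beyond 1. It called 537 genes higher in replicate 2, which is 3.22% of the tested genes, and 1564 genes lower, which is 9.37%. With 4 libraries the model has 1 residual degree of freedom, so a gene's own spread is the disagreement between the 2 treatments. The model draws this spread toward a value shared across genes, so the SEs and p-values below are not each gene's own. MROH8, for example, differed by -4.41 in DMSO and -4.42 in I-BET151, yet had an SE of 0.212. Without the filter on low TPM no gene passed (0 higher and 0 lower, with 5907 at an unadjusted p under 0.05), nor without the treatment term (0 and 0, with 2409). A model over 10 libraries, which shares its spread with the replicated groups of expandable progenitors (ePP), called 576 genes higher and 1619 lower. It assumes that the 4 libraries vary as those groups do. The shares of genes 2-fold apart given below go against that, so its p-values may be too small. Leaving out 1 of the 4 libraries in that model leaves only the pair of the other treatment, 1 library against 1. Within a treatment each side is 1 library and there is no test. In DMSO, 698 genes (4.18%) lay 2-fold or more higher and 1483 (8.89%) 2-fold or more lower. In I-BET151, the counts were 1002 (6.0%) and 2424 (14.5%). In both treatments together, 334 genes (2.0%) were 2-fold or more higher and 951 (5.7%) 2-fold or more lower. The share of calls that were higher was 25.6%, and it was 39.2% after median centring of the libraries, 40.0% after quantile normalization and 38.2% after rescaling without ribosomal protein genes. Median centring moved the median difference of all genes from -0.06 to 0.06.

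**Figure D1:**
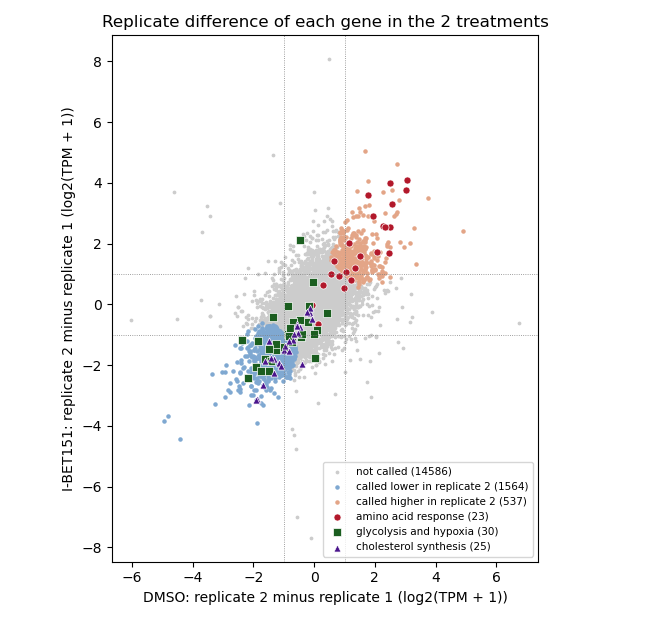
Replicate 2 minus replicate 1 of each tested gene on the log2(TPM + 1) scale, in DMSO on the horizontal axis and in I-BET151 on the vertical axis, with dotted lines at 1 and -1. Called genes are coloured, and members of 3 gene lists are drawn with larger symbols. The amino acid response genes lie at the upper right, while the glycolysis and hypoxia and the cholesterol synthesis genes lie mostly at the lower left.

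These 2 replicate pairs stood further apart than those of the other replicated groups. Among genes with a mean of 1 TPM in the pair, 13.85% were 2-fold or more apart in DMSO and 21.64% in I-BET151. The corresponding shares were 3.056% in ePP-P9, 3.317% in ePP-P21 and 5.143% in ePP-β, which are expandable progenitors at passages 9 and 21 and the β-like cells made from them. The mean share differed by 13.91 percentage points, with an exact permutation p of 0.2 (two-sided), the smallest that 10 arrangements of the 5 pairs allow here. The ePP libraries came from batch 2. Per the study's methods, expandable progenitors were kept on feeder cells in the basal medium with 1 μM I-BET151. Batch, experiment and culture therefore cannot be told apart. Splitting each gene's variation among the 4 libraries, the replicate number took the largest part in 7703 genes (46.2%) and the treatment in 7805 genes (46.8%). The part that was unequal between treatments was largest in 1179 genes (7.07%). Of the squares summed over all genes, the treatment held 54.4%, the replicate number 38.1% and the unequal part 7.49%.

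The replicate difference moved with the GC content of the transcript. Genes called lower had a median GC content of 61.6%, genes called higher 43.3%, and all tested genes 49.2%. With the genes put in 10 bins by GC content, in the lowest bin the median difference was 0.34 in DMSO and 0.46 in I-BET151, and 6.08% were called higher and 0.241% lower. In the highest bin it was -0.74 and -1.08, and 0.903% were called higher and 40.7% lower. Across genes, Spearman's rho of GC content and replicate difference was -0.549 in DMSO and -0.635 in I-BET151, against -0.0187 in ePP-P9, -0.232 in ePP-P21 and -0.0334 in ePP-β. These values describe genes of 1 pair of libraries each, and genes are not independent replicates. For transcript length rho was 0.00412 and 0.0285, but calls were not even across length. With 5 bins by length, 5.6% of the shortest genes and 1.99% of the longest were called higher, and the shares called lower were 6.86% in the shortest bin, 12.1% in the middle bin and 6.02% in the longest. An adjustment chosen after the data were seen removed the median deviation of each library within 20 bins of GC content. It left 198 genes called higher (1.19%) and 82 called lower (0.491%), and turned the share of calls that were higher from 25.6% to 70.7%. Of the genes called without the adjustment, 135 of 537 stayed called higher and 78 of 1564 stayed called lower. What part GC content has in any single difference was not tested, and adjusted values are given beside the groups with calls.

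**Figure D2:**
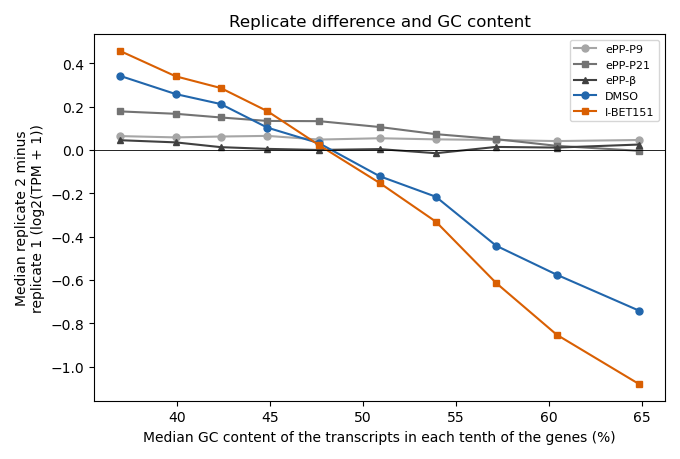
Median replicate difference (log2(TPM + 1), vertical axis) of the tested genes put in 10 bins by transcript GC content (horizontal axis, median percent of each bin), 1 line for each replicate pair. The DMSO and I-BET151 lines fall from 0.34 and 0.46 to -0.74 and -1.08, while the ePP-P9, ePP-P21 and ePP-β lines stay between -0.02 and 0.18.

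The amino acid response was the list of genes with the highest median difference of the 39 lists described. Of its 23 tested members, 16 were called higher in replicate 2 and none lower, against 3.22% and 9.37% of all genes. The median member differed by 1.50 in DMSO and 1.69 in I-BET151, while the median of all tested genes was -0.07 and -0.06. After the GC adjustment the median of the list was 1.79 and 16 members were again called higher. The summed level of the listed genes was 2157 TPM in DMSO replicate 1, 2087 TPM in I-BET151 replicate 1, 4430 TPM in DMSO replicate 2 and 4437 TPM in I-BET151 replicate 2. The summed level therefore followed the replicate number and was alike in both treatments. Single members were not all alike between treatments. In replicate 1, SLC7A11 was at 8.56 TPM in DMSO and 0.382 TPM in I-BET151, and TRIB3 at 26.6 and 5.64 TPM, while PSAT1 was at 79.1 and 100 TPM.

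Among the regulators, ATF4 mRNA itself did not pass the test. It was at 697 and 513 TPM in replicate 1 and at 844 and 796 TPM in replicate 2 (difference 0.46 ± 0.17 SE, adjusted p = 0.121). DDIT3, encoding the stress factor CHOP, stood at 31.9 and 16.6 TPM in replicate 1 and at 125 and 130 TPM in replicate 2 (2.42 ± 0.26, adjusted p = 0.0181). TRIB3, a pseudokinase that restrains ATF4 and CHOP, rose from 26.6 and 5.64 TPM to 155 and 106 TPM. For DDIT3 and TRIB3, both replicate 2 libraries lay above both replicate 1 libraries. DDIT4, an inhibitor of mTOR complex 1, was at 119 and 110 TPM in replicate 1 and at 584 and 666 TPM in replicate 2 (2.44 ± 0.16, adjusted p = 0.0169). CEBPB, a partner of ATF4 on DNA, differed by 0.78 and was not called, but it was called after the GC adjustment at 1.77. SESN2, a leucine sensor, lay at the edge of the call, with a difference of 1.00.

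The enzymes of amino acid synthesis split into those that rose and those that did not pass the test. ASNS, which makes asparagine, was at 34.8 and 25.0 TPM in replicate 1 and at 289 and 351 TPM in replicate 2 (3.39 ± 0.22, adjusted p = 0.0169). PSAT1, the second step of serine synthesis, was at 79.1 and 100 TPM in replicate 1 and at 332 and 337 TPM in replicate 2. PSPH, the last step, rose by 1.06, while PHGDH, the first step, differed by 0.13 in DMSO and -0.66 in I-BET151 and was not called. CTH, which makes cysteine from cystathionine, rose by 2.52, whereas CBS, the enzyme before it, differed by -0.05 (adjusted p = 0.817). In the mitochondrial folate pathway, MTHFD2 rose from 41.2 and 42.5 TPM to 213 and 255 TPM, and ALDH1L2 rose by 2.08. ALDH1L2 passed the filter only through replicate 2, at 0.922 and 0.178 TPM in replicate 1 and 9.66 and 2.81 TPM in replicate 2. SHMT2, which feeds that pathway from serine, differed by 0.88 and was called only after the GC adjustment. CHAC1, an enzyme that degrades glutathione, had the largest difference of the list, at 17.2 and 5.69 TPM in replicate 1 against 152 and 114 TPM in replicate 2 (3.59 ± 0.28, adjusted p = 0.0181).

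Several amino acid transporters rose as well. SLC7A11, the cystine importer, was at 8.56 and 0.382 TPM in replicate 1 and at 31.3 and 15.6 TPM in replicate 2 (2.67 ± 0.45, adjusted p = 0.0241). SLC7A1, which carries arginine and lysine, rose by 1.55, and SLC6A9, which carries glycine, by 1.27. SLC3A2, the heavy chain shared by several amino acid exchangers, rose by 1.04, while its partner SLC7A5 differed by 0.75 and was not called. STC2, a secreted glycoprotein induced by ATF4, rose by 2.92, and VLDLR, a lipoprotein receptor, by 1.58. With the GC adjustment SLC7A11, ALDH1L2, VLDLR and SLC3A2 were no longer called at adjusted p between 0.061 and 0.077, and SESN2, SHMT2, CEBPB and SLC7A5 were called in their place.

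**Figure D3:**
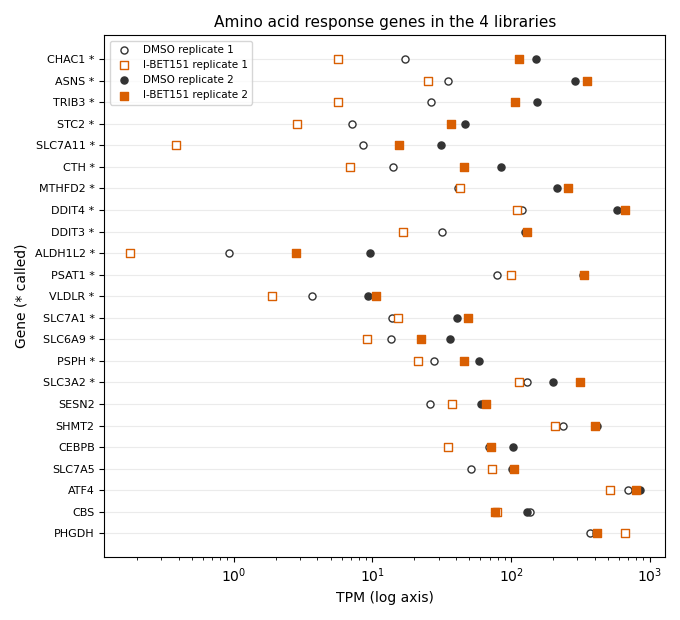
TPM (log axis) of the 23 tested amino acid response genes in each of the 4 libraries, ordered by their mean replicate difference, with an asterisk for called genes. Filled symbols (replicate 2) lie to the right of open symbols (replicate 1) for all genes with an asterisk. CHAC1 heads the list at 152 and 114 TPM against 17.2 and 5.69 TPM.

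ATF4 binds composite elements of a C/EBP and an ATF site. The promoter windows of RefSeq (build GRCh38.p14, 250 bases before to 50 after the start) were searched on both strands for TGATGNAA, a core form of this element, since the amino acid response genes moved together. A window was given for 20 of the 25 listed genes and 5 held a match, or 25.0%, against 3.67% of all 27305 promoters. Of the 19 tested members with a window 4 held it (21.1%), against 1.71% of all tested genes with a window. Of the 13 called members with a window, 4 held it (30.8%), and of the 6 tested members that were not called, 0 did. In SLC3A2 and SLC7A1, which are among the 4, it begins 37 and 7 bases after the start. The other match was in FGF21, which was not tested. The list was chosen as genes of this response and the calls come from these libraries, so the shares are no test. Below are 60-base stretches before the start of the 2 genes with the largest differences, 5′ to 3′ on the strand of the gene, with the matched letters in capitals. In ASNS the match reads as written and begins 68 bases before the start (chr7:97872443-97872502, minus strand). In CHAC1 it is the reverse complement and begins 209 bases before the start (chr15:40953236-40953295, plus strand). A match describes the letters only and is not a measured site.
CHAC1: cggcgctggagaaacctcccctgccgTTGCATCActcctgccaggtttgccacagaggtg
ASNS: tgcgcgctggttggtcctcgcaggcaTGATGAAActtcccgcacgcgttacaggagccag

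Genes that sit on other stress pathways were less uniform. Of 21 tested genes of the unfolded protein response of the endoplasmic reticulum, 4 were called higher (19.0%) and 1 lower (4.76%). The shares of all genes were 3.22% and 9.37%. The median was 0.11 in DMSO and 0.16 in I-BET151. HERPUD1, a factor of protein degradation at the endoplasmic reticulum, was at 23.8 and 13.4 TPM in replicate 1 and at 69.2 and 53.7 TPM in replicate 2 (1.71 ± 0.19, adjusted p = 0.0181). DNAJB9, ERN1 and XBP1 were the other 3 called higher, and SDF2L1 was the 1 called lower. HERPUD1 was the only one of them called after the GC adjustment. Of 13 heat shock genes, 3 were called lower (HSPA1A, HSPA1B and BAG3), a share of 23.1% against 9.37% of all genes, and none after the adjustment. HSPA1A and HSPA1B are near-identical copies whose reads cannot be separated with certainty. Of 18 NRF2 targets 2 were called higher, SLC7A11 and the malic enzyme gene ME1, and 2 lower, among them the pentose phosphate enzyme gene TKT. These shares were 11.1% each, and no NRF2 target was called after the adjustment, where the median was 0.42. Of 20 p53 targets, 1 was called lower (5.0%) and none higher, with no call and a median of 0.12 after the adjustment.

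Glycolytic and hypoxia-regulated genes were lower in replicate 2. Of 30 tested genes, 12 were called lower and none higher, against 9.37% and 3.22% of all genes. A lower value in both treatments was found in 25 of the 30, and in 7154 of all 16687 tested genes. The median gene differed by -0.83 in DMSO and -1.07 in I-BET151. After the GC adjustment the median was -0.81 and 8 genes were called lower. The summed level was 13780 and 13840 TPM in replicate 1 and 7953 and 6284 TPM in replicate 2.

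All 3 forms of phosphofructokinase, the committing step of glycolysis, had lower values, and PFKP and PFKL were called. PFKP was at 143 and 85.3 TPM in replicate 1 and at 30.4 and 15.1 TPM in replicate 2 (-2.31 ± 0.16, adjusted p = 0.0181). PFKL was at 349 and 329 TPM and then at 102 and 70.4 TPM, while the muscle form PFKM differed by -0.64. PFKFB4, which makes the allosteric activator of phosphofructokinase and was named by its size of change, was at 50.4 and 25.3 TPM in replicate 1 and at 5.70 and 2.19 TPM in replicate 2. The aldolase genes ALDOA and ALDOC fell by 1.97 and 1.85. Among later steps, PGAM1, ENO1, ENO2 and PKM were called lower, with PKM at 775 and 1202 TPM in replicate 1 and at 292 and 327 TPM in replicate 2. GAPDH and TPI1, at the middle of the pathway, differed by -0.69 and -0.93 and were not called.

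The genes of glucose entry and the hypoxia markers were mixed. The glucose transporter SLC2A1 differed by -0.98 and was not called, and hexokinase HK1 fell by 1.29 while HK2 differed by -0.38. EGLN3, the oxygen-sensing hydroxylase that is itself a hypoxia target, fell by 1.37, and ANKRD37 by 1.53. NDRG1, a stress-regulated gene, was at 620 and 131 TPM in replicate 1 and at 118 and 57.9 TPM in replicate 2. VEGFA, the angiogenic factor, was at 274 and 269 TPM in DMSO replicates 1 and 2 and at 145 and 245 TPM in the I-BET151 replicates, and was not called (adjusted p = 0.285). PDK1, a mitochondrial kinase that inhibits pyruvate dehydrogenase, had 18.6 and 13.04 TPM in the DMSO replicates and 10.4 and 49.0 TPM in the I-BET151 replicates. CA9, a hypoxia marker of the cell surface, was not called either. MIR210HG, the host transcript of a hypoxia-induced microRNA, was called lower, at 71.7 and 51.1 TPM in replicate 1 and at 12.4 and 6.59 TPM in replicate 2 (-2.61 ± 0.19, adjusted p = 0.0181).

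Cholesterol synthesis genes were lower in replicate 2 too. All 25 tested genes had a lower value in both treatments, as did 7154 of all 16687 tested genes. Of the 25, 14 were called lower (56.0%, against 9.37% of all genes) and none higher. The median was -0.83 in DMSO and -1.37 in I-BET151, and -1.09 after the GC adjustment, when 4 genes (ACAT2, HSD17B7, FDPS and DHCR7) were called. The summed level was 3726 and 3053 TPM in replicate 1 and 1879 and 1037 TPM in replicate 2. The early step HMGCS1 differed by -0.60 and was not called (adjusted p = 0.056). MVK and MVD, the mevalonate steps that follow, were called, with MVD at 199 and 267 TPM in replicate 1 and at 53.7 and 30.1 TPM in replicate 2 (-2.49 ± 0.31, adjusted p = 0.0187). Of the late steps, LSS and DHCR7 fell by 1.78 and 1.74, whereas CYP51A1, SC5D and MSMO1 differed by -0.21, -0.25 and -0.28. The transcripts of CYP51A1 and MVD have a GC content of 41.1% and 65.5%.

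Of the regulators of the same pathway, SREBF2 and INSIG1 are described. SREBF2, the transcription factor of the pathway, was at 179 and 144 TPM in replicate 1 and at 100 and 61.7 TPM in replicate 2 (-1.02 ± 0.17, adjusted p = 0.0238). INSIG1, which holds SREBP in the endoplasmic reticulum, was at 66.8 and 49.9 TPM in the DMSO replicates, against 50.3 and 12.3 TPM in the I-BET151 replicates and was not called (adjusted p = 0.0799). The sterol regulatory element was searched in the same promoter windows as TCACNCCAC on both strands. A single member of 18 with a window held it, SREBF2 itself (5.56%), against 1.15% of all promoters. That was 1 of 9 called members and 0 of 9 not called. The share rests on 1 gene and, as for the amino acid element, is no test. In SREBF2 the match begins 133 bases before the start in the 60 bases shown (chr22:41832947-41833006, plus strand).
SREBF2: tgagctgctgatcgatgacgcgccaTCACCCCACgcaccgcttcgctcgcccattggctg

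**Figure D4:**
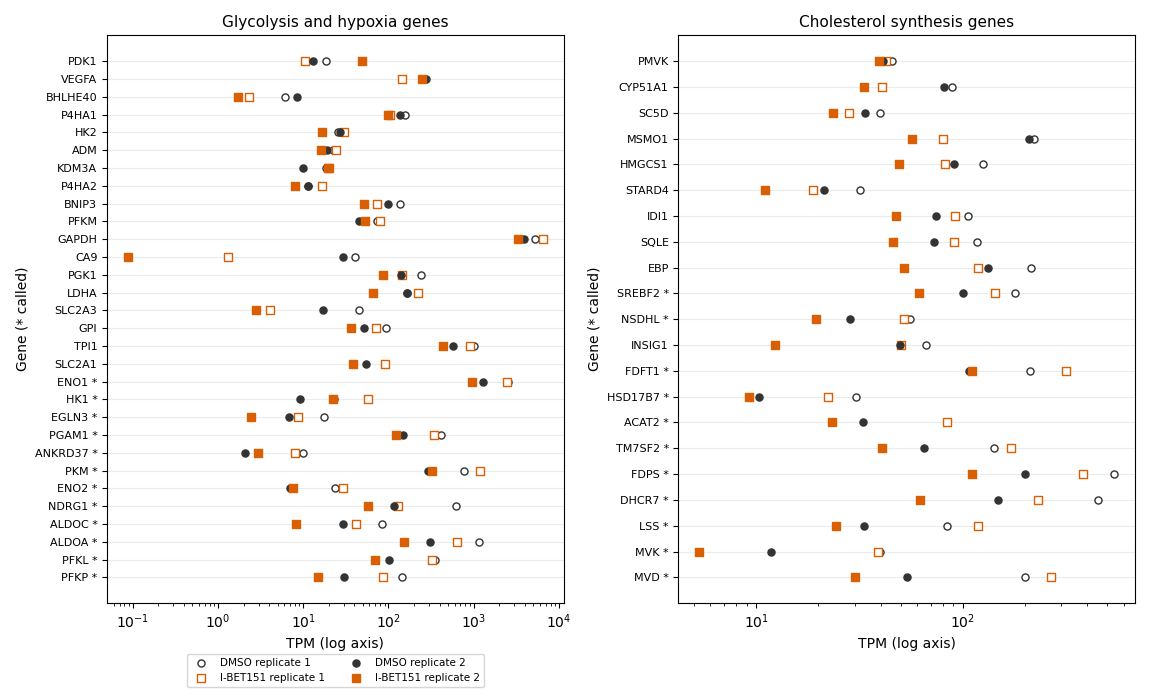
TPM (log axis) of the glycolysis and hypoxia genes on the left and of cholesterol synthesis genes on the right in each of the 4 libraries, ordered by their mean replicate difference, with an asterisk for called genes. In the called genes the filled symbols (replicate 2) of a treatment lie to the left of its open symbols (replicate 1). The cholesterol synthesis genes drawn, a part of the 25 tested, were lower in replicate 2 in both treatments.

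A part of the ribosomal protein genes was higher in replicate 2. Of 79 cytosolic ribosomal protein genes, 20 were called higher and none lower, and the median was 0.55 in DMSO and 0.83 in I-BET151. The called share was 25.3%, against 3.22% of all genes. For the mean difference of both treatments the list median was 0.63, and quantile normalization lowered it to 0.34. With the GC adjustment it was 0.68 and 7 were called. Ribosomal protein genes took 20.5% of the listed TPM in DMSO replicate 1 and 16.9% in I-BET151 replicate 1, and 28.1% and 27.8% in the replicate 2 libraries. The list was not uniform, since 59 genes had a higher value and 11 a lower value in both treatments. Of all 16687 tested genes these were 5871 and 7154. RPS10 was at 761 and 690 TPM in replicate 1 and at 2896 and 2802 TPM in replicate 2 (1.97 ± 0.17, adjusted p = 0.0181), and RPL37, RPS29 and RPL31 rose by 1.84, 1.79 and 1.75. These genes have many processed pseudogenes that can share their reads. RPL24P4, a pseudogene of RPL24, was itself called, at 103 and 81.9 TPM in replicate 1 and at 388 and 605 TPM in replicate 2. Of 34 translation factors 3 were called higher (8.82%), among them the start codon selection factor EIF1, which rose by 1.64, and 1 was called lower (2.94%). With the GC adjustment 1 translation factor was called higher and none lower, at a median of 0.22. Of 76 mitochondrial ribosomal protein genes none was called higher and 3 were called lower (3.95%), with 1 in each direction and a median of 0.01 after the adjustment. Of 76 subunits of oxidative phosphorylation 1 was called higher and 2 lower (1.32% and 2.63%), with 2 higher, none lower and a median of 0.23 after the adjustment.

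Some long noncoding RNAs were higher as well. Of 16 tested members of their list, 6 were called higher (37.5%, against 3.22% of all genes) and none lower, and 4 were after the GC adjustment. SNHG1 was at 180 and 163 TPM in replicate 1 and at 557 and 539 TPM in replicate 2 (1.67 ± 0.15, adjusted p = 0.0181). SNHG5 rose by 1.88, ZFAS1 by 1.56, GAS5 by 1.42, SNHG8 by 1.17 and EPB41L4A-AS1 by 1.16. Of the other transcripts that host small nucleolar RNAs, SNHG6 and SNHG3 were not called, and SNHG3 had a lower value in both treatments, at 40.6 and 44.8 TPM in replicate 1 and 34.2 and 42.3 TPM in replicate 2. The nuclear RNAs MALAT1 and NEAT1 were not called. NEAT1 was at 4.58 and 41.3 TPM in the DMSO replicates, against 158 and 58.3 TPM in the I-BET151 replicates.

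Early-response and YAP target genes had members that rose. Of 19 immediate early genes 6 were called higher (31.6%, against 3.22% of all genes) and none lower. The 6 were ATF3, CCN1, CCN2, DUSP1, EGR1 and JUN, and 7 were called higher after the GC adjustment. ATF3, a stress factor that ATF4 also induces, was at 6.13 and 6.72 TPM in replicate 1 and at 45.2 and 60.1 TPM in replicate 2 (2.84 ± 0.19, adjusted p = 0.0169). FOS, at 22.7 and 42.5 TPM in replicate 1 and 60.7 and 51.8 TPM in replicate 2, was not called, and neither was MYC. Of 20 targets of the density-sensitive coactivator YAP, 6 were called higher (30.0%) and none lower, with 3 called and a median of 0.51 after the adjustment. ANKRD1, the most changed, was at 70.3 and 65.3 TPM in replicate 1 and at 243 and 494 TPM in replicate 2 (2.34 ± 0.29, adjusted p = 0.0185). AJUBA rose by 1.49, and CCN1 and CCN2 belong to both lists. The EGF receptor ligands AREG and EREG rose by 2.46 and 1.70. EREG passed the filter only through replicate 2, at 0.623 and 0.019 TPM in replicate 1 and 6.07 and 1.46 TPM in replicate 2. In the same list of 21 growth factor feedback genes FGFR1, FGFR4, ERBB2, ETV4 and SPRY4 were called lower. The called shares were 9.52% higher and 23.8% lower, against 3.22% and 9.37% of all genes. None of the 7 was called after the GC adjustment.

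Some chemokine genes rose. Of 16 tested NF-kB and chemokine genes 4 were called higher (25.0%) and 2 lower (12.5%), against 3.22% and 9.37% of all genes. The 4 were CXCL8, CCL20, CXCL2 and CXCL3, and CCL20 was at 49.1 and 4.18 TPM in replicate 1 and at 120 and 25.3 TPM in replicate 2 (1.81 ± 0.29, adjusted p = 0.0229). The 2 were LIF and PLAU. None of the 16 was called after the GC adjustment. The interferon-stimulated and MHC class I genes gave 1 call in each direction out of 22 (4.55% each), with no call and a median of 0.23 after the adjustment.

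Cell cycle genes were described by phase. Of 54 G2/M genes none was called higher and 8 were called lower (14.8%, against 9.37% of all genes), with a median of -0.27 in both treatments and -0.45 after the GC adjustment, when 1 was called. AURKB, the kinase of the chromosomal passenger complex, was at 88.3 and 135 TPM in replicate 1 and at 31.5 and 40.5 TPM in replicate 2 (-1.58 ± 0.16, adjusted p = 0.0181). CDC20 and PSRC1 fell by 1.26 and 1.43. Of 43 S-phase genes 2 were called higher (CCNE2 and USP1, 4.65%) and 1 lower (UHRF1, 2.33%), against 3.22% and 9.37% of all genes. This list had a median of 0.18 in DMSO and 0.29 in I-BET151. After the GC adjustment its median was 0.06 and no S-phase gene was called. The difference between the 2 phases was not tested.

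Among the factors of the pancreatic progenitor, 2 of 12 tested genes were called lower and none higher, a share of 16.7% against 9.37% of all genes. NKX6-1, which marks the progenitors able to give β cells, was at 103 and 446 TPM in replicate 1 and at 51.5 and 208 TPM in replicate 2 (-1.04 ± 0.15, adjusted p = 0.0206). In each replicate its level was higher with I-BET151, and the replicate difference was alike in both treatments. HNF4A, a hepatic and gut endoderm factor also used by the pancreas, fell by 1.24. PDX1 differed by -0.56 and was not called (adjusted p = 0.0545), and SOX9 and ONECUT1 differed by -0.12 and 0.09. In I-BET151, 4 of the 12 genes were 2-fold or more lower and 0 higher, against 1 and 1 in DMSO. Over all tested genes the shares lower and higher were 14.5% and 6.0% in I-BET151, and 8.89% and 4.18% in DMSO. FOXA2 was at 45.0 and 39.0 TPM in the DMSO replicates, against 150 and 60.6 TPM in the I-BET151 replicates. MNX1 was at 73.4 and 69.7 TPM in DMSO, against 256 and 117 TPM in I-BET151, and GATA4 at 37.0 and 33.8 TPM, against 117 and 58.0 TPM. The median of the list was -0.16 in DMSO and -0.66 in I-BET151, and 0.06 after the GC adjustment, when neither NKX6-1 nor HNF4A was called. NKX6-2 was then called higher, at 1.84. Of 19 Notch pathway genes 4 were called lower (21.1%, against 9.37% of all genes), namely LFNG, NOTCH3, HES4 and RFNG, and only LFNG after the adjustment. LFNG, a glycosyltransferase that modifies Notch receptors, was at 23.6 and 66.3 TPM in replicate 1 and at 3.21 and 10.8 TPM in replicate 2 (-2.53 ± 0.18, adjusted p = 0.0181).

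Some genes of hepatocytes rose. Of 19 tested liver-type genes 5 were called higher (26.3%) and 2 lower (10.5%), against 3.22% and 9.37% of all genes. The median was 0.04 in DMSO and 1.16 in I-BET151. FGG, a fibrinogen chain, was at 11.0 and 4.50 TPM in replicate 1 and at 78.5 and 134 TPM in replicate 2 (3.67 ± 0.45, adjusted p = 0.0182), and FGA, APOB, FABP1 and APOA4 were the other 4. VTN and HNF4A were called lower. ALB, the defining hepatocyte product, was at 115 and 66.2 TPM in the DMSO replicates, against 4.32 and 17.8 TPM in the I-BET151 replicates and was not called (adjusted p = 0.557). AFP and TTR were not called either, and no gene of the list was after the GC adjustment. The summed level of the list was 18490 and 18360 TPM in the DMSO replicates and 5558 and 6648 TPM in the I-BET151 replicates. Of 14 gastric and intestinal genes 3 were called higher (FABP2, KRT20 and MUC13, 21.4%), and none after the adjustment.

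A part of the matrix genes was lower. Of 31 collagen and basement membrane genes 10 were called lower (32.3%) and 1, COL11A1, higher (3.23%), against 9.37% and 3.22% of all genes. After the GC adjustment 1, COL2A1, was called lower. COL2A1 was at 329 and 889 TPM in replicate 1 and at 93.1 and 179 TPM in replicate 2 (-2.06 ± 0.18, adjusted p = 0.0181). COL1A1 and COL3A1, made mainly by fibroblasts, fell by 1.82 and 1.11, from 42.0 and 110 TPM in DMSO replicate 1. The stromal markers did not all follow. Of 13 tested markers, 7 had a lower value in both treatments and 3 a higher value in both. Of all 16687 tested genes these were 7154 and 5871. LUM and POSTN had a lower value in DMSO and a higher value in I-BET151. Of the 13 markers, 3 were called lower (23.1%, against 9.37% of all genes), none of them after the adjustment. The sum of the 17 stromal markers was 989 and 895 TPM in the DMSO replicates and 970 and 1357 TPM in the I-BET151 replicates. These sums came mostly from VIM (600 to 1220 TPM). For endothelial markers 1 of 3 tested genes (33.3%), EGFL7, was called lower, but not after the adjustment, and PECAM1 did not pass 1.85 TPM in any library. For neural markers 1 of 5 (20.0%) was called lower, which was TUBB3, also after the adjustment. Of the acinar genes 1 of 7 (14.3%) was called higher, PRSS1, and none after the adjustment. PRSS1 passed the filter only through replicate 2, at 0.31 and 0.0195 TPM in replicate 1 and 4.22 and 1.26 TPM in replicate 2. Of 11 ductal genes SPP1 was called higher and KRT19 lower (9.09% each), and SPP1 alone after the adjustment. No gene was called among 4 endocrine lineage genes, 2 blood cell markers and 5 metallothionein and zinc transport genes. The part of other cell types in the differences was not tested.

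The remaining lists held few calls. Of 31 proteasome subunits, 28 large splicing and chromatin genes, 33 replication-dependent histone genes, 9 Wnt pathway targets and 4 pluripotency markers, 1 gene each was called lower and none higher. These were 3.23%, 3.57%, 3.03%, 11.1% and 25.0% of the lists, against 9.37% of all genes. The pluripotency gene was the methyltransferase gene DNMT3B, at 5.97 and 17.2 TPM in replicate 1 and at 2.24 and 3.64 TPM in replicate 2. Of 16 TGF-β and BMP targets 1 was called higher (6.25%, against 3.22% of all genes), and 1 after the GC adjustment. Of the 12 BET and elongation genes none was called. None of the genes called lower in these 5 lists was called after the GC adjustment.

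**Figure D5:**
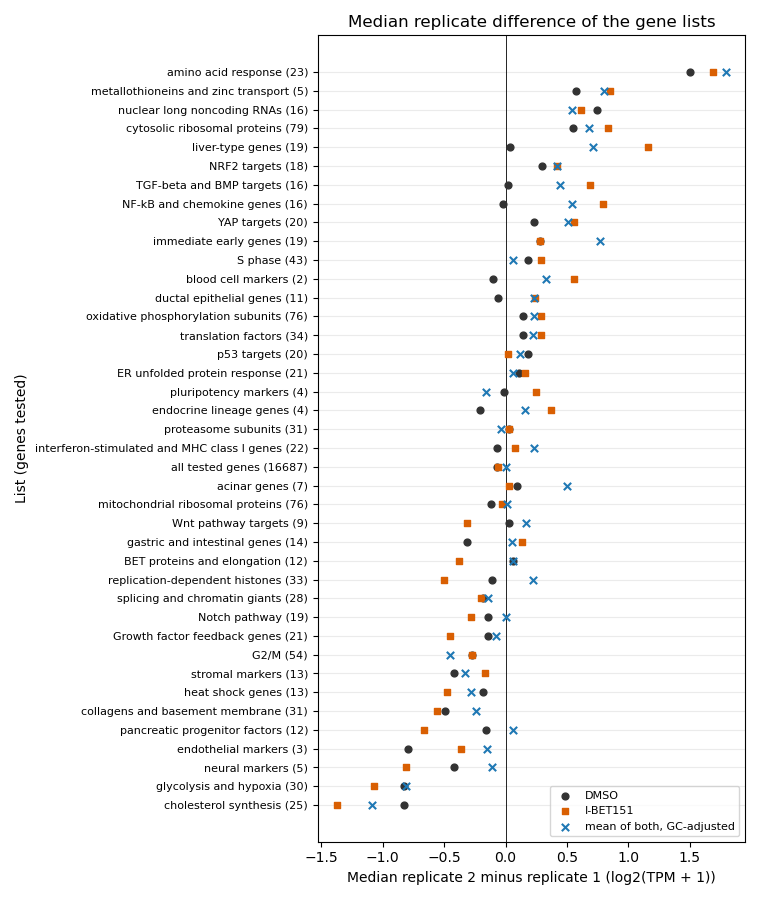
Median replicate 2 minus replicate 1 (log2(TPM + 1)) of each gene list in DMSO (circles), in I-BET151 (squares) and, as the mean of both after the GC adjustment (crosses), with the number of tested genes in brackets. The amino acid response lies at the top, at 1.50, 1.69 and 1.79, and cholesterol synthesis at the bottom, at -0.83, -1.37 and -1.09.

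Beyond the lists, the protein-coding genes with the largest differences in both treatments were taken by size, from 165 eligible genes in the higher and 694 in the lower direction. The higher set lost FGG, FILIP1L, HAMP and S100P after the GC adjustment, at adjusted p between 0.0524 and 0.0919. It included SPINK1, a secreted trypsin inhibitor, at 40.6 and 19.3 TPM in replicate 1 and at 564 and 229 TPM in replicate 2 (3.63 ± 0.16, adjusted p = 0.0169). SPP1, encoding osteopontin, was at 16.1 and 2.52 TPM and then at 116 and 37.4 TPM, and stayed called after the GC adjustment. The calcium-binding protein gene S100P was at 454 and 14.6 TPM in replicate 1 and at 1443 and 516 TPM in replicate 2. A2M, a protease inhibitor of plasma, was at 61.1 and 3.55 TPM and then at 300 and 58.3 TPM. HAMP, which encodes the iron regulator hepcidin, was at 3.23 and 0.00256 TPM in replicate 1 and at 13.6 and 15.9 TPM in replicate 2. FILIP1L, at 1.10 and 15.8 TPM and then at 61.4 and 88.1 TPM, overlaps CMSS1 on the other strand. The remaining gene of the set not yet described, ENSG00000285133, lies within DDIT3 on the same strand, so its reads cannot be told apart from those of DDIT3.

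In the lower direction MROH8 stood first, at 33.2 and 36.1 TPM in replicate 1 and at 0.606 and 0.733 TPM in replicate 2 (-4.42 ± 0.21, adjusted p = 0.0169). It overlaps RPN2 on the other strand, and the use of strand in the counting is not given in the sources used here. HOXB3, a patterning gene of the HOXB cluster, was at 16.1 and 78.4 TPM and then at 0.780 and 7.25 TPM, and overlaps other genes of the cluster. TUBB3, a tubulin of neurons, was at 115 and 803 TPM in replicate 1 and at 15.2 and 113 TPM in replicate 2. ENSG00000198211, which overlaps TUBB3 on the same strand, moved with it. HES6, a HES family member that antagonises HES1, was at 65.9 and 404 TPM and then at 11.2 and 54.3 TPM. S100A6, a calcium-binding protein gene, was at 81.3 and 5.75 TPM and then at 7.06 and 0.378 TPM. AMH, the anti-Müllerian hormone, was at 31.6 and 64.7 TPM and then at 6.45 and 5.67 TPM, with a transcript of 73.0% GC. ESPN, an actin-bundling protein gene, PPP1R16A and GAS2L1 were also in the set, with differences of -2.90, -2.68 and -2.53. Of these, MROH8, HOXB3, TUBB3, ENSG00000198211, HES6 and PPP1R16A stayed called after the GC adjustment, as did PFKFB4, while S100A6, AMH, GAS2L1 and ESPN did not, at adjusted p between 0.0541 and 0.0835.

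Among noncoding genes, RPPH1, the RNA of ribonuclease P, was at 264 and 122 TPM in replicate 1 and at 7.66 and 7.52 TPM in replicate 2 (-4.39 ± 0.29, adjusted p = 0.0169). ENSG00000259001, which lies over RPPH1 on the same strand, moved with it, at -4.23. RPPH1 is made by RNA polymerase III without a poly(A) tail. In the higher direction, MIR4435-2HG was at 30.0 and 8.85 TPM and then at 108 and 94.5 TPM, and ENSG00000285016 overlaps it. ENSG00000284707, a long noncoding gene, was at 18.1 and 18.3 TPM and then at 127 and 157 TPM and overlaps ASNS on the same strand, so their reads cannot be told apart. The 2 microRNA precursor genes MIR6758 and MIR1914 were named by the same rule, but such short features are not measured reliably in these libraries. MIR4435-2HG, ENSG00000285016 and MIR1914 were not called after the GC adjustment, at adjusted p between 0.056 and 0.096.

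In 1 treatment only means 2-fold or more apart there and under 0.5 in the other. By this rule 161 genes were higher (0.965%) and 221 lower (1.32%) in DMSO only, and 298 higher (1.79%) and 439 lower (2.63%) in I-BET151 only. A test of whether a gene's 2 replicate differences differ needs a spread from the ePP groups of batch 2, in a model over 10 libraries, and assumes that the DMSO and I-BET151 libraries vary as those do. The shares of genes 2-fold apart given above, 3.056% to 5.143% against 13.85% and 21.64%, go against that assumption. Its p-values are therefore too small, and the 5 genes past an adjusted p of 0.05 with a difference beyond 1 (1806 at an unadjusted p under 0.05) are described by their values alone. PFDN1, a subunit of the prefoldin chaperone, was at 60.9 and 60.8 TPM in DMSO replicates 1 and 2 and at 4.53 and 70.6 TPM in the I-BET151 replicates (difference of differences 3.70). The low value was that of 1 library, I-BET151 replicate 1. PSMD6, a proteasome subunit, was at 54.6 and 13.9 TPM in the DMSO replicates, against 92.2 and 94.2 TPM in the I-BET151 replicates (1.92).

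Other genes apart in 1 treatment only were named by size. FGB, the fibrinogen chain beside FGG, was at 167 and 172 TPM in the DMSO replicates and at 37.1 and 327 TPM in the I-BET151 replicates (3.06). CFTR, the chloride channel of ductal cells, was at 46.5 and 38.9 TPM in the DMSO replicates, against 4.07 and 21.2 TPM in the I-BET151 replicates. RPL26, a ribosomal protein gene, was at 3532 and 2980 TPM and at 1117 and 5666 TPM. Lower in I-BET151 only were the plasminogen receptor gene PLGRKT, at 26.3 and 29.0 TPM in the DMSO replicates, against 25.4 and 1.80 TPM in the I-BET151 replicates, and also TEPSIN, DNM1, CCDC57 and DNAJC30. In DMSO only, CHCHD6, a mitochondrial inner membrane protein gene, was at 0.407 and 12.2 TPM, against 23.3 and 17.1 TPM in I-BET151 (-3.65), and CLIP1, C14orf93, NSMCE3 and FAM220A were also higher. VSNL1, a neuronal calcium sensor, was at 25.3 and 1.99 TPM in the DMSO replicates, against 5.31 and 5.41 TPM in the I-BET151 replicates, and LPAR6, PPFIBP2, RNF186 and PLEKHA4 were also lower in DMSO only.

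Opposite directions, 2-fold or more in each treatment, were found in 40 genes, 21 higher in DMSO and lower in I-BET151 and 19 the other way. DDX42, an RNA helicase of the spliceosome, was at 13.5 and 63.2 TPM in the DMSO replicates, against 64.9 and 20.9 TPM in the I-BET151 replicates (-3.74). RPS13 was at 1842 and 818 TPM in the DMSO replicates, against 1386 and 3175 TPM in the I-BET151 replicates (2.36). CCL2, a monocyte chemokine, was at 36.1 and 13.4 TPM in the DMSO replicates, against 0.707 and 50.3 TPM in the I-BET151 replicates (6.27). OTC, an enzyme of the urea cycle, was at 121 and 41.5 TPM and at 1.42 and 5.46 TPM. CFC1 and CFC1B, near-identical Nodal coreceptor genes that share reads, went the same way as OTC, as did ENAH. A1BG, ADD1, IMP3 and NANOS1 went the way of DDX42.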

How the data were processed

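Total RNA of MEL1-derived cells was made into libraries with the NEBNext Ultra kit. Per the labels, the authors aligned reads to hg38 with HISAT2 2.1.0, and per the study's methods they assembled transcripts with StringTie. The deposited values are TPM per gene, computed by the authors and not scaled further across libraries. Their annotation release and use of strand are not given in the sources used here. For their own tests the authors used DESeq2, which needs counts. Of 60624 identifiers 60370 matched GENCODE 44, which gave symbols, positions, GC content and length of the canonical transcript. All 37 mitochondrial genome genes were listed at 0.

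Samples were grouped by title. Values were taken as log2(TPM + 1), for genes with 1 TPM in 2 of the 4 libraries, and fitted with limma 3.58.1 in R 4.3.3 (intensity trend, two-sided). The code was tested on simulated data. Genes were named by size of difference with at least 10 TPM (up to 12 per direction in both treatments, 5 in other patterns and 5 noncoding), and as members of 39 lists. Y-linked genes and XIST were left out, and a few other genes count in the totals but are not reported by name here. Members, rules and lists were chosen with earlier results of these data known. Alternatives were other pseudocounts, filters and scalings, other models and each library left out, with the GC adjustments added after the data were seen.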

Additional observations from a re-analysis of the deposited data

Results flagged for a closer look

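In 5 genes the replicate difference in I-BET151 lay apart from that in DMSO at an adjusted p under 0.05, with a spread taken from the ePP groups. The ePP pairs had 3.056% to 5.143% of genes 2-fold apart, against 13.85% in DMSO and 21.64% in I-BET151, so the p-values of that model are too small and no difference is called from them. The differences of the replicate differences were 3.70 for PFDN1, 1.92 for PSMD6, 2.36 for RPS13, -3.74 for DDX42 and -7.58 for HMGN1P36. HMGN1P36, a processed pseudogene of a chromatin protein gene, was at 5.06 and 4.62 TPM in DMSO replicates 1 and 2 and at 1206 and 4.87 TPM in I-BET151 replicates 1 and 2. The high value was that of 1 library, I-BET151 replicate 1. The same library held the low value of PFDN1, and DMSO replicate 2 held the lowest value of PSMD6.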

How the results depend on the processing

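Depth is unknown for TPM, and 4 libraries limit every comparison. No gene was called higher or lower (0 and 0) without a filter, where 5907 genes had an unadjusted p under 0.05, or without the treatment term, where 2409 had. With an adjusted p alone, 993 genes were higher and 2337 lower. Fitting GC content gave 198 higher and 82 lower calls, and GC content with length 203 and 120. Genes 2-fold lower in both treatments then numbered 182 and 206. Pseudocounts of 0.1 and 0.01 gave 526 and 562 genes 2-fold higher in both, and 0.01 gave 1471 lower in both. Rescaling without ribosomal protein genes gave 506 higher in both. Genes apart in DMSO only numbered 590 without a filter and 170 at 5 TPM, where those apart in I-BET151 only numbered 481. A pseudocount of 0.1 gave 5 genes with a smaller replicate difference in I-BET151. The cause of these changes was not tested.

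Leaving out each library in turn, in the model over 10 libraries that takes the lone sample to vary like the other groups, gave 372 to 719 genes higher and 961 to 1932 lower, against 576 and 1619 with all libraries in that model. The lower counts came without either I-BET151 replicate and the higher counts without either DMSO replicate. Of all 39 lists, the median of 10 changed sign under the GC adjustment, of 8 with length fitted too, of 9 without an I-BET151 replicate, and of 4 or fewer under the other settings. Of the 11 lists with a median beyond 0.5 in size, 1 changed sign under the GC adjustment, with or without length, and 1 without a filter, and none under a changed pseudocount, a 5 TPM filter or another scaling.

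I-BET151 against DMSO gave 1 gene higher and 34 lower without the replicate number, and 2536 genes at an unadjusted p under 0.05. The replicate block gave 828 higher and 1466 lower. The numbers were shared by 2 pairs only, and the labels do not say what they mark. Across genes the 2 replicate differences correlated with Pearson's r of 0.675, which is a hint from the data and not the design. Leaving out each library gave 1 to 216 genes higher and 30 to 661 lower. Without I-BET151 replicate 2 these were 216 and 661, without I-BET151 replicate 1 38 and 462, and without DMSO replicate 2 7 and 226.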
